A study of Mus musculus with 11 samples.

Results

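The epithelial sodium channel (ENaC) and the genes through which aldosterone acts on it were followed in RNA from mouse colon. The RNA came from cells labelled as hormone-secreting, after estradiol benzoate (EB) or its vehicle. The set holds 9 genes chosen by symbol, of 49997 listed in each of the deposited tables: Scnn1a, Scnn1b, Scnn1g, Nr3c2, Hsd11b2, Sgk1, Nedd4l, Prss8 and Atp1b1. It was chosen with EB-against-vehicle results of these libraries in view, so the members' values in L cells are given as a description, without a test. Test results of the members in EC cells are given, but the same choice limits what can be read from them. All 9 passed the filter on low values (normalised counts of 10 or more in 2 or more libraries) in the L-cell table, and 7 passed it in the EC-cell table, where Scnn1b and Scnn1g did not.

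All 11 libraries came from the colon of ovariectomised C57BL/6 female mice aged 10 to 14 weeks. L cells, which release peptide YY and glucagon-like peptides, were taken from Cck-Cre;R26LSL-tdTomato mice 4 hours after EB (3 libraries) or sesame oil (2 libraries), with about 7000 cells per treatment group. In that genotype, tdTomato marks any cell in which the Cck promoter has driven Cre. Enterochromaffin (EC) cells, which release serotonin, were taken from mice of a genotype given only as ECFLTG, after EB (4 libraries) or sesame oil (2 libraries), with at least 500 cells per sample and no stated time. Removal of the ovaries was thus common to all 4 groups. Whether replicate libraries stem from different mice is not stated, so the p-values below reflect only the scatter among these samples, part or all of which can be technical.

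Libraries of L cells held 27658579 to 31449447 reads on genes, and those of EC cells 4955808 to 10640921. The labelled cell types were set against their markers, by the share of a library's reads. In L cells, the 5 L-cell hormone markers took 0.0566% to 0.280% of reads with EB and 0.0154% to 0.0409% with vehicle, whereas 13 colonocyte markers took 5.15% to 5.64% with EB and 7.05% to 7.98% with vehicle. The same 5 L-cell markers took 0.115% to 0.985% of reads in EC cells with EB, and 0.219% and 1.74% with vehicle. Each EC-cell library was thus above both L-cell vehicle libraries in this share, and the range overlapped that of the L-cell EB libraries. In EC cells, the 6 EC-cell markers took 0.811%, 1.10%, 4.71% and 12.3% in EB libraries 1 to 4, against 7.35% and 8.82% in the vehicle libraries. EB libraries 1 and 2 of the EC cells therefore stood apart, with the least EC-cell and the most colonocyte transcript of that table, and the fold changes of EC cells are given with and without them. L cells and EC cells are used below as the labels of these libraries. In such bulk RNA, fewer cells of a type and less RNA per cell cannot be told apart.

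ENaC is the apical channel through which sodium enters the surface epithelium of the distal colon and the collecting duct of the kidney, and is built from alpha, beta and gamma subunits (Scnn1a, Scnn1b, Scnn1g). Aldosterone binds the mineralocorticoid receptor (Nr3c2), while the enzyme 11-beta-hydroxysteroid dehydrogenase type 2 (Hsd11b2) inactivates corticosterone that would otherwise occupy it. The receptor induces the kinase Sgk1, which phosphorylates the ubiquitin ligase Nedd4l and so keeps it from removing the channel from the membrane. The protease prostasin (Prss8) activates the channel, and the sodium pump, of which Atp1b1 is the beta-1 subunit, carries the sodium out across the basolateral membrane. In rodent distal colon, aldosterone is known to raise the beta and gamma subunit transcripts more than the alpha one.

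Scnn1g and Scnn1b, the members with the largest EB-to-vehicle ratios of mean in L cells, are neighbours on chromosome 7. In the RefSeq annotation of GRCm38.p6, the assembly of mm10, Scnn1g lies at chr7:121734420-121768482 and Scnn1b at chr7:121865038-121918728, both on the plus strand. The 96555 bases between them hold 0 protein-coding genes, and Scnn1a lies apart, at chr6:125314271-125344943. The windows before their starts are shown because these adjacent genes differed most between the groups; they are RefSeq sequences of GRCm38.p6, from 250 bases before the start, written 5′ to 3′ on the plus strand. Capitals mark GGTCA on either strand, one arm of the estrogen response element, whose reverse complement is TGACC. For Scnn1g the window printed is chr7:121734229-121734419, stopping where the annotated gene span begins, and for Scnn1b it is chr7:121864788-121865037.
Scnn1g: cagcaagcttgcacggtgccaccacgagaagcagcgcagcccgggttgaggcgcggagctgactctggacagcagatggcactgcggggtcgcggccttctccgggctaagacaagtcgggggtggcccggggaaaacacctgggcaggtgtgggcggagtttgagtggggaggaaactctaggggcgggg
Scnn1b: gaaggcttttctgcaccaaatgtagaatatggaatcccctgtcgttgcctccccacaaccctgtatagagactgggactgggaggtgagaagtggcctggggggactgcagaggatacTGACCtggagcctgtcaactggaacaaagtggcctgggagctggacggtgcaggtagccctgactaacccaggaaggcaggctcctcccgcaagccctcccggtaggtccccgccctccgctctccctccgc
Each of the full windows of 250 bases holds 1 GGTCA. The one of Scnn1g lies in the 59 bases not printed. These fall inside the annotated gene span, since the window of Scnn1g is measured from a later transcript start. GGTCA occurs by the same search in 35.2% of 32851 RefSeq windows of this length, and 0.0639% hold the palindromic element itself, GGTCA and TGACC 3 bases apart, which neither gene's window holds. The hexamer TGTTCT, one arm of the element bound by corticosteroid receptors, searched on both strands and found in 16.1% of windows, is in neither. These are matches of letters and not sites of binding. Of the 9 members, 5 had a window in the table.

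In L cells, the gamma subunit transcript stood about an order of magnitude higher with EB, the beta transcript was less than 2-fold higher, and the groups overlapped for 6 of the other 7 members. At an adjusted p under 0.05, limma called 0 of the 9 members, in a comparison that called 4 of 16217 genes (0.0247%). A log2 fold change above 0 was found for 8 of 9 members and for 49.7% of all genes. The median log2 fold change of the members was 0.14, against -0.0022 for all genes tested. Every EB library lay above every vehicle library for 2 of 9 members (14.3% of all genes) and below for 1 (14% of all genes). Since the members were chosen on this comparison, nothing is read from these counts.

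**Figure D1:**
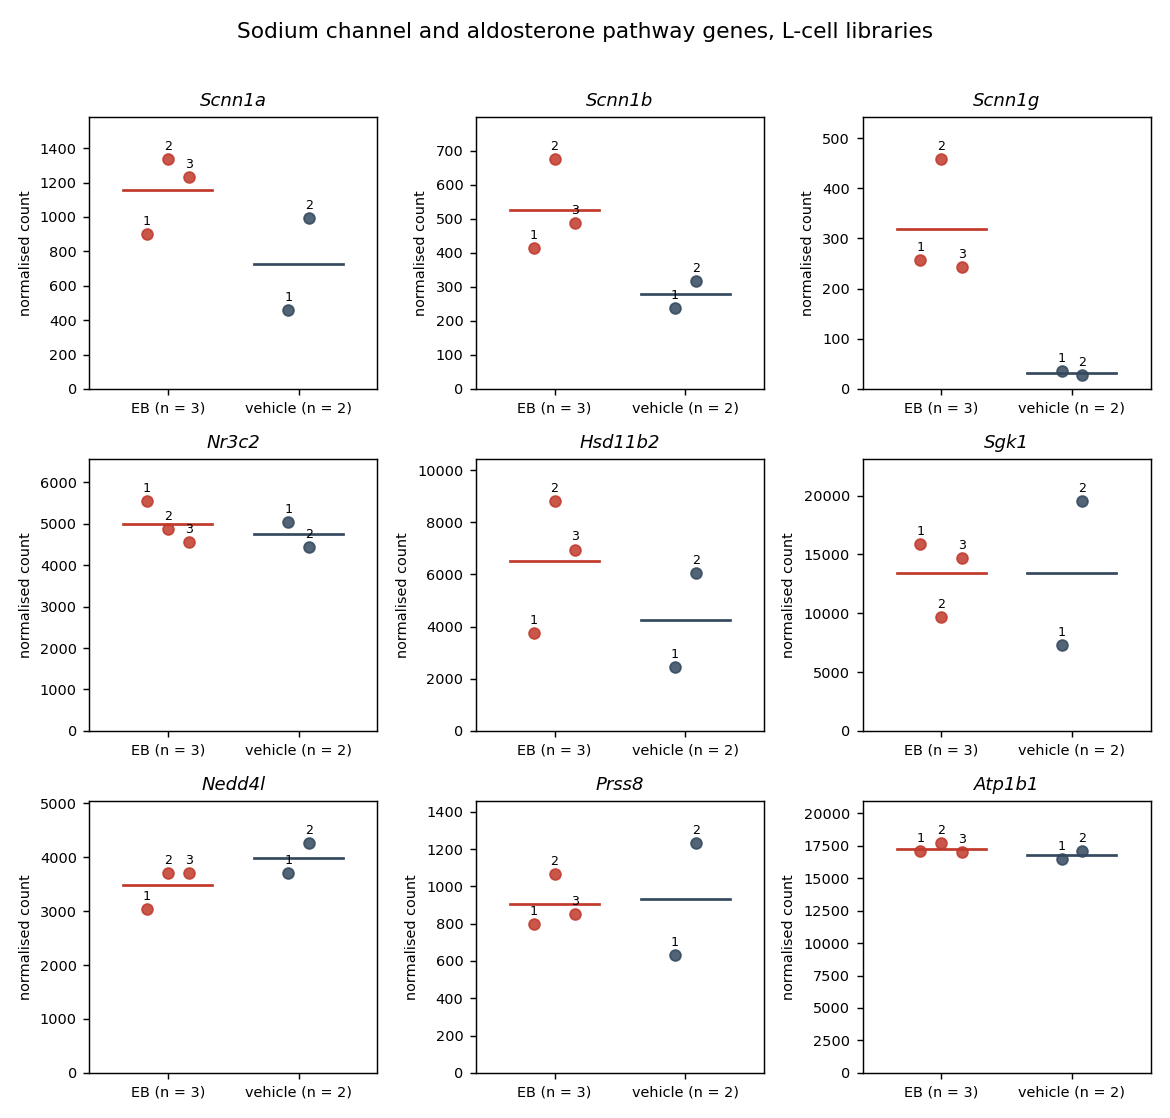
Normalised counts (vertical axes, linear, from 0) of the 9 members in each L-cell library, EB left and vehicle right; points are libraries with their replicate number and lines are group means. The 3 EB libraries of Scnn1g sit between 242 and 459, above both vehicle libraries at 28.0 and 36.2, whereas the groups of Nr3c2, Hsd11b2, Sgk1, Prss8 and Atp1b1 overlap.

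Scnn1g, the gamma subunit, had normalised counts of 257, 459 and 242 in L cells with EB, against 36.2 and 28.0 with vehicle. The lowest EB library was thus well above the higher vehicle library, with 256, 507 and 268 reads behind the EB values and 34 and 25 behind the vehicle values. The means were 319.5 ± 121 (SD, n = 3) with EB and 32.1 ± 5.76 (SD, n = 2) with vehicle, a ratio of 9.96. On the log2(value + 1) scale used throughout, on which low genes appear to change less than they do, the fold change was 3.22 ± 0.37 (SE).

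Scnn1b, the beta subunit, had 414, 677 and 489 normalised counts with EB, against 238 and 318 with vehicle. The groups did not overlap, and the lowest EB library lay 95.8 counts above the higher vehicle library. Its means were 527 ± 136 (SD, n = 3) with EB and 278 ± 56.6 (SD, n = 2) with vehicle, a ratio of 1.89 and a log2 fold change of 0.90 ± 0.26 (SE).

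Scnn1a, the alpha subunit, had 901, 1340 and 1230.5 normalised counts with EB, against 456 and 992 with vehicle. EB library 1 lay below vehicle library 2, so the groups overlapped. The log2 fold change of 0.76 ± 0.33 (SE) rested on the lower vehicle library: it was 0.20 without vehicle library 1 and 1.32 without vehicle library 2.

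The gamma subunit's share of the channel transcripts was higher in each EB library. Per kilobase of exon, so that the genes can be compared, Scnn1g made up 18.7%, 20.9% and 14.3% of the subunit reads in the EB libraries of L cells, against 5.68% and 2.53% in the vehicle libraries. Scnn1b took 34.1%, 35% and 32.9% with EB and 42.5% and 32.6% with vehicle. Scnn1a took 47.3%, 44.1% and 52.8% with EB and 51.8% and 64.8% with vehicle, and was the most abundant subunit in each L-cell library. The shares of both Scnn1a and Scnn1b overlapped between the groups, and those of Scnn1g did not.

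**Figure D2:**
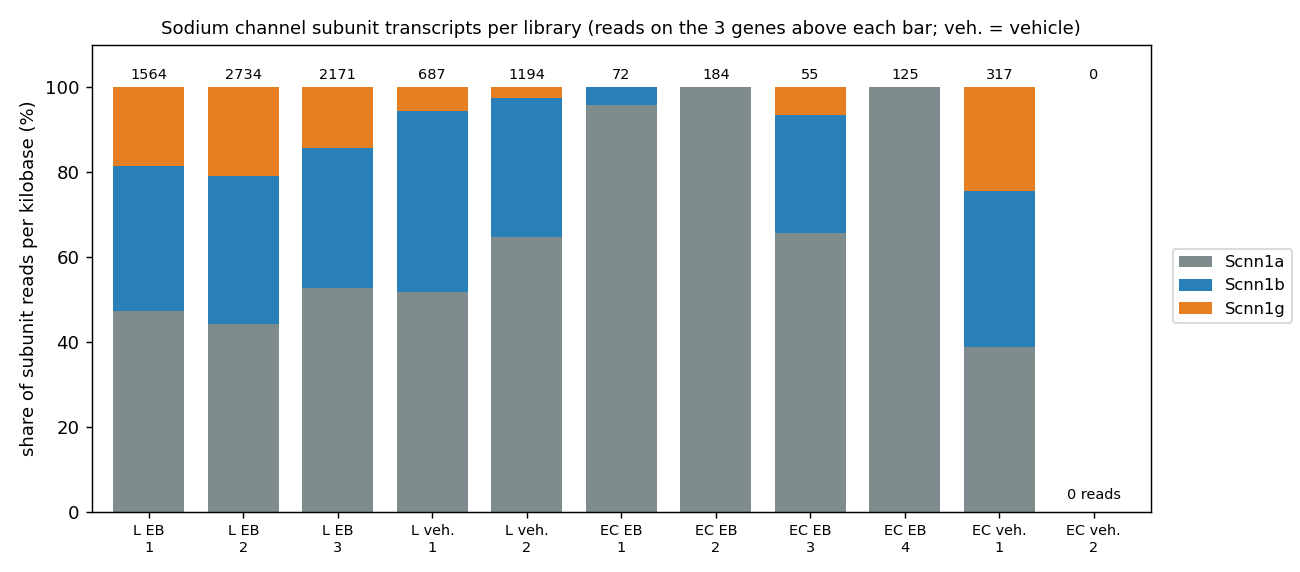
Share of sodium channel subunit reads per kilobase of exon (vertical axis, %) taken by Scnn1a, Scnn1b and Scnn1g in each of the 11 libraries, with the reads on the 3 genes above each bar. Scnn1g takes 14.3% to 20.9% in the EB libraries of L cells and 2.53% and 5.68% in their vehicle libraries; the EC-cell bars rest on at most 317 reads, and EC vehicle library 2 has none.

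Nr3c2, the mineralocorticoid receptor, had 5559.6, 4869 and 4570.5 normalised counts in L cells with EB, against 5045 and 4445 with vehicle. The groups interleaved, with a log2 fold change of 0.073 ± 0.14 (SE). Hsd11b2 had 3746, 8829 and 6954 normalised counts with EB, against 2447 and 6048 with vehicle. EB library 1 again lay below vehicle library 2. The log2 fold change of Hsd11b2 was 0.67 ± 0.44 (SE), and 0.019 without vehicle library 1.

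The kinase Sgk1 had 15859, 9687 and 14685 normalised counts with EB, and the vehicle libraries, at 7268 and 19570, were its lowest and highest. Its log2 fold change was 0.14 ± 0.39 (SE), turning to -0.58 without vehicle library 1. Nedd4l, the ligase that Sgk1 restrains, had 3038, 3699.9 and 3699 normalised counts with EB, against 3705 and 4271 with vehicle. Every EB library was below both vehicle libraries, but only by 5.15 counts at the closest, and the log2 fold change was -0.20 ± 0.15 (SE). Per 1000000 reads on genes the groups of Nedd4l overlapped, at 109, 130 and 131 with EB and 123 and 130 with vehicle.

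The protease Prss8 had 796, 1068 and 850.1 normalised counts with EB, inside the span of the vehicle libraries at 630 and 1235. Atp1b1, the pump's beta-1 subunit, had 17108, 17749 and 16993 normalised counts with EB, against 16453 and 17073 with vehicle. In normalised counts it was the most even member: the log2 fold change was 0.044 ± 0.12 (SE), and that of Prss8 was 0.025 ± 0.29 (SE). This depended on the scale. Per 1000000 reads on genes, Atp1b1 had 615, 623 and 601 with EB, against 546 and 521 with vehicle, without overlap. Vehicle library 1 was the lowest library for 6 of the 9 members and EB library 2 the highest for 5, so their levels differed by library as well as by group. Reads of Nr3c2, Nedd4l, Prss8 and Atp1b1 cannot be told apart from those of genes on the opposite strand that overlap their exons (Gm10649, A330084C13Rik, Kat8 and Nme7), since the library kit does not mark strand.

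Levels per length ranked the members within L cells. In reads per kilobase of exon per 1000000 reads, Atp1b1 averaged 188.7 ± 14.6, Hsd11b2 104 ± 48.9, Sgk1 92.5 ± 31.7 and Nr3c2 25.8 ± 3.55 (SD, n = 5 EB and vehicle libraries together). Prss8 averaged 16.7 ± 3.78, Scnn1a 8.15 ± 3.04, Nedd4l 7.06 ± 0.521, Scnn1b 5.59 ± 2.4 and Scnn1g 2.41 ± 2.13 on the same scale. Hsd11b2 and Sgk1 overlapped, and Hsd11b2 was the higher in 2 of 5 libraries. The order of these 2 differed between the groups, with Hsd11b2 at 125 and Sgk1 at 97.2 with EB, and Hsd11b2 at 72.3 and Sgk1 at 85.6 with vehicle. So did that of Scnn1a and Nedd4l, at 9.92 and 6.98 with EB and at 5.50 and 7.18 with vehicle. From Prss8 down, the range of each member overlapped that of the next, though Scnn1b exceeded Scnn1g in 5 of 5 libraries.

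Several marker lists differed between EB and vehicle in L cells. The 9 Hox genes of paralogue groups 10 to 13, which mark distal position along the gut, together took 0.0385%, 0.0286% and 0.0201% of reads with EB, against 0.00446% and 0.00665% with vehicle. Of these, 8 were tested and all 8 had higher values with EB, 6 of them without overlap (14.3% of all genes). Hoxc10 was at 0 in every EB library. Hoxb13, the most abundant named here, had 9676, 7035 and 5063 normalised counts with EB, against 1132 and 1840 with vehicle. Scnn1g, Scnn1b and this Hox share thus all separated the same libraries, although the Hox share was highest in EB library 1 and both subunits were highest in EB library 2. The part of distal position in the subunit values was not tested. In EC cells the same Hox genes took 0.000485% to 0.00548% of reads with EB and 0.00256% and 0.0109% with vehicle. The 3 of them tested there were all lower with EB.

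Other lists differed as well, some of them in mixed directions. The 13 colonocyte markers had 4 members higher and 9 lower with EB in L cells, none at 0 in a whole group. Of these, 1 was higher without overlap (14.3% of all genes) and 4 were lower without overlap (14% of all genes). Car1, by far the most abundant of the 13, had 949358, 1060760 and 890764 normalised counts with EB, against 1800750 and 1500130 with vehicle. The share of the list therefore weighs Car1 most, and the share of the other markers was not taken separately. All 6 goblet markers had log2 fold changes above 0, 2 of them without overlap (14.3% of all genes), and Muc2 was at 0.085 ± 0.48 (SE). The 6 took 1.13%, 2.3% and 1.77% of reads with EB against 0.545% and 1.12% with vehicle, and none was at 0 in a whole group. All 5 L-cell markers were higher too, with the shares given above, as were 5 of 6 EC-cell markers, at 0.0131% to 0.0286% of reads with EB and 0.00753% to 0.00821% with vehicle. All 5 stem and progenitor markers were higher, 4 of them without overlap (14.3% of all genes). They took 0.00637% to 0.00881% of reads with EB and 0.00225% to 0.00231% with vehicle. Of 5 stromal markers, 4 were lower without overlap (14% of all genes) and 1 was higher. The 5 together took 0.000419% to 0.00187% with EB and 0.0010% and 0.0270% with vehicle. Of 4 immune markers, 3 were tested and had higher values with EB, at 0.00021% to 0.00267% with EB and 0.000253% to 0.000798% with vehicle, and Cd79a was at 0 in both vehicle libraries. The goblet share, like Scnn1g, Scnn1b and Scnn1a, was highest in EB library 2. The part of these cell types in the members' values was not tested.

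**Figure D3:**
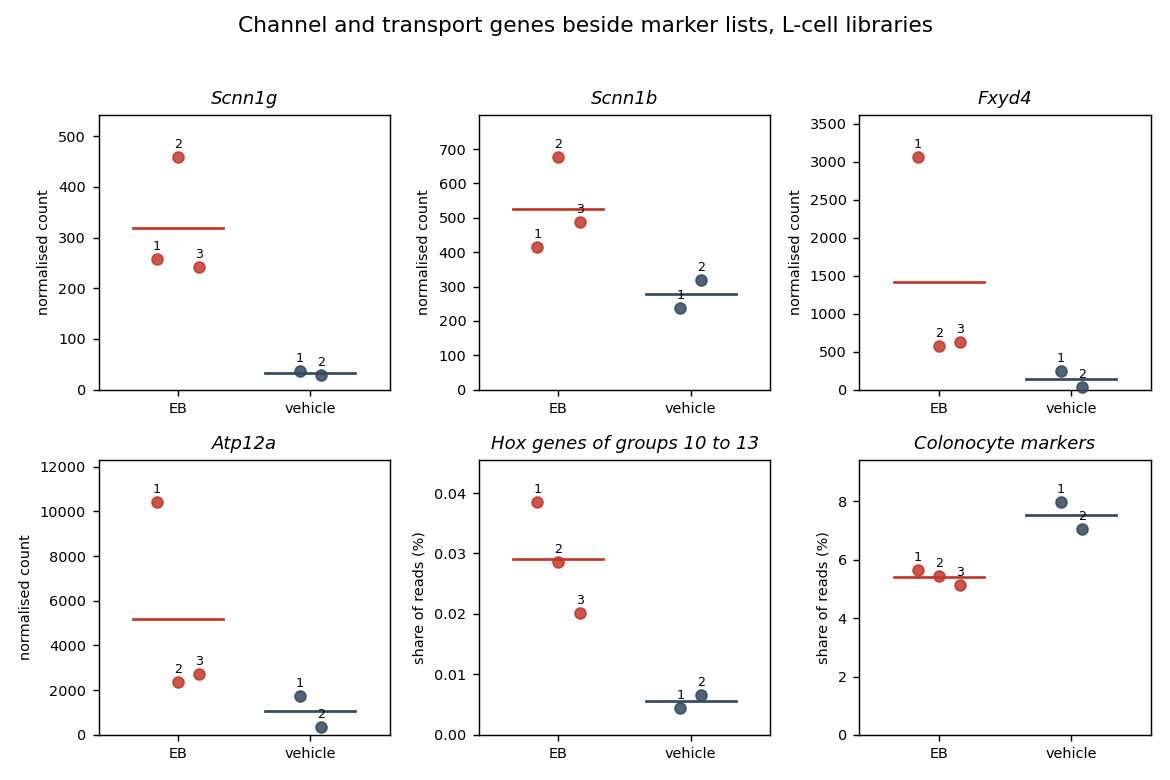
Scnn1g, Scnn1b, Fxyd4 and Atp12a in normalised counts, beside the share of reads (%) on Hox genes of groups 10 to 13 and on colonocyte markers, in each L-cell library, EB left and vehicle right; points are libraries with replicate numbers and lines are group means. The Hox share is 0.0201% to 0.0385% with EB and 0.00446% to 0.00665% with vehicle. The colonocyte share, which weighs Car1 most, is lower in each EB library, while 4 of the 13 markers are higher and 9 lower.

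The same comparison was made in the libraries labelled EC cells, to ask whether the members differed between EB and vehicle there. The beta and gamma subunits had at most 11 reads in 5 of the 6 libraries and 93 and 70 in vehicle library 1, the alpha subunit had at most 184, and the receptor and Hsd11b2 were higher in each EB library without passing the test. Of 7 members tested, limma called 0 at an adjusted p under 0.05, in a comparison that called 0 of 15287 genes (0%). At an unadjusted p under 0.05 there were 2, Nr3c2 and Hsd11b2, against 542 of all genes (3.55%). Earlier results of these data were known when the members were chosen, so nothing is read from the members' counts here. On recovered reads, edgeR called 0 of the 7 and DESeq2 called 1, Nr3c2, of 15 genes in all (0.0981%). Every EB library lay above both vehicle libraries for 2 of the 7 (4.98% of all genes) and below for 0 (6.3%). A log2 fold change above 0 was found for 6 of the 7 and for 47.5% of all genes, and the members' median was 0.22, against -0.071 for all genes. Without EB libraries 1 and 2, 4 of the 7 were above 0, and the median was 0.070 for the members and 0.057 for all genes.

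**Figure D4:**
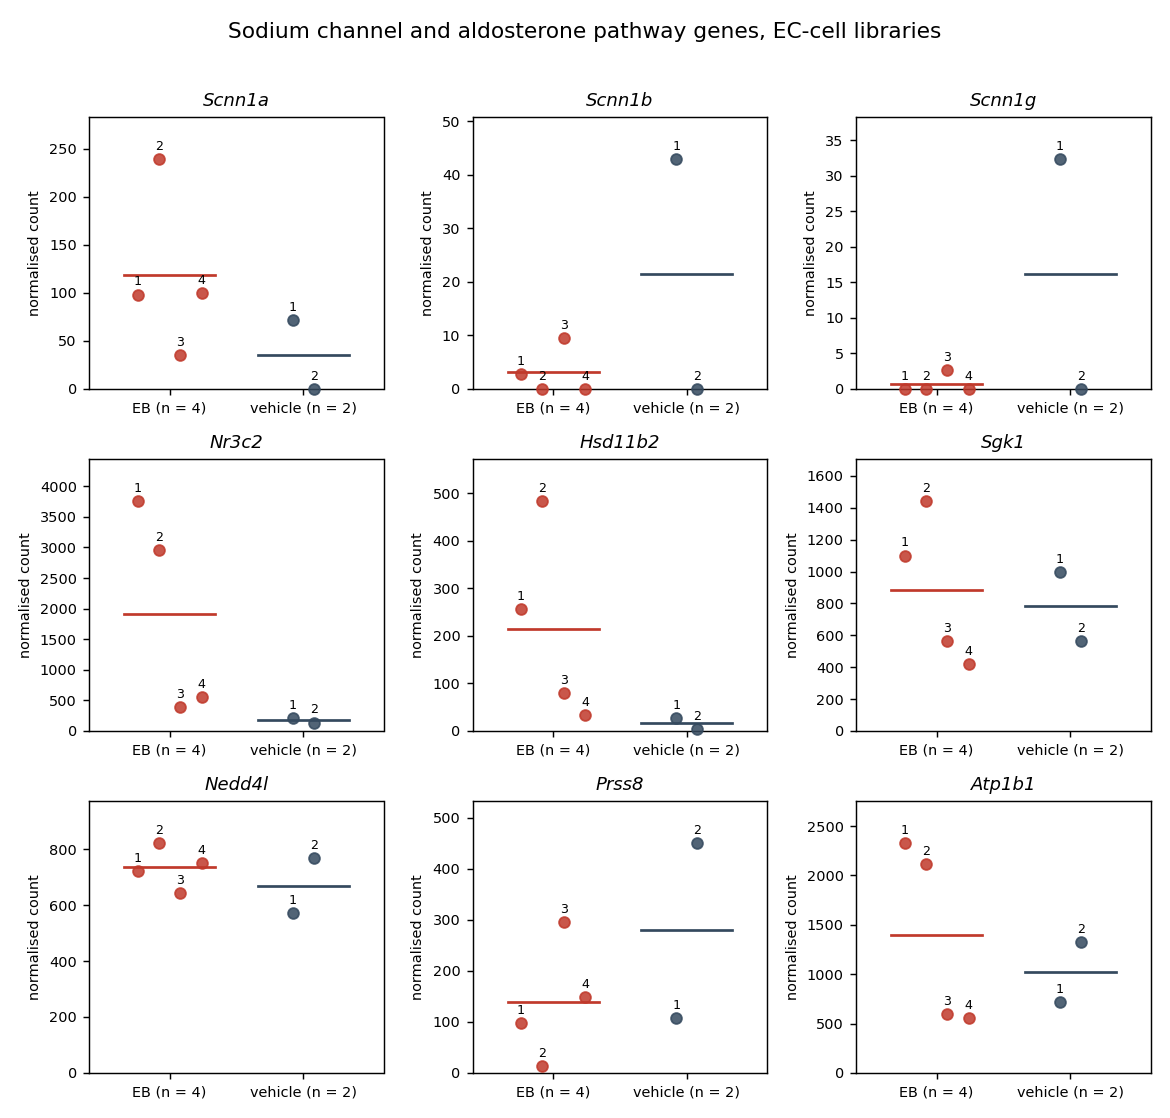
Normalised counts (vertical axes, linear, from 0) of the 9 members in each EC-cell library, EB left and vehicle right; points are libraries with their replicate number and lines are group means. Nr3c2 reaches 3767 and 2957 in EB libraries 1 and 2 and lies between 137 and 546 in the other 4; Scnn1b and Scnn1g exceed 10 only in vehicle library 1.

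Nr3c2 had 3767, 2957, 389.7 and 546 normalised counts in EC cells with EB, against 205 and 137 with vehicle. The groups did not overlap, but EB libraries 1 and 2 were far above EB libraries 3 and 4. The log2 fold change was 2.88 ± 0.85 (SE), with a limma adjusted p of 0.905. It was 1.46 when EB libraries 1 and 2 were left out. DESeq2 gave an adjusted p of 0.0499, the lowest over the alternatives, which ran up to 0.99985.

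Hsd11b2 had 257, 485, 79.5 and 34.4 normalised counts in EC cells with EB, against 27.8 and 3.31 with vehicle. Again the groups did not overlap and EB libraries 1 and 2 were the highest. Its log2 fold change was 3.63 ± 1.42 (SE), with a limma adjusted p of 0.905, and was 2.26 without EB libraries 1 and 2. The colonocyte share of reads in the same libraries was 3.25%, 3.5%, 1.011% and 0.578% with EB, against 1.09% and 0.297% with vehicle. All 13 colonocyte markers had higher values with EB, none of them without overlap, and Slc37a2 was at 0 in both vehicle libraries. Nr3c2, Hsd11b2 and this share were thus all highest in EB libraries 1 and 2, and the part of colonocyte transcript in the values of these 2 members was not tested.

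Scnn1a had 98.3, 239.8, 35.4 and 99.99 normalised counts in EC cells with EB, against 71.3 and 0 with vehicle. The log2 fold change of 3.51 ± 1.76 (SE; limma adjusted p = 0.905) rested on vehicle library 2, in which no read was counted: without that library it was 0.42, without vehicle library 1 it was 6.60, and without EB libraries 1 and 2 it was 2.83. A count of 0 in it allows up to 3 reads, or 3.31 normalised counts, by counting error alone.

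Scnn1b had 2.81, 0, 9.51 and 0 normalised counts in EC cells with EB, against 43.1 and 0 with vehicle. Scnn1g had 0, 0, 2.59 and 0 with EB, against 32.4 and 0 with vehicle, and neither gene was tested. Vehicle library 1 alone held 93 and 70 reads of them, whereas no other EC-cell library held more than 11. That library also had the highest goblet share of the table, 1.12% of reads, followed by EB library 3 at 0.579%, the only other library with reads of both genes; EB libraries 1, 2 and 4 had 0.0185%, 0.0453% and 0.0110%, and vehicle library 2 had 0.0140%. This was noticed after the values were seen, and the part of goblet transcript in these reads was not tested. Scnn1a took 95.7%, 100%, 65.7% and 100% of the subunit reads per kilobase with EB. In vehicle library 1, on 317 reads, Scnn1a took 38.8%, Scnn1b 36.8% and Scnn1g 24.4%, the last above the 14.3% to 20.9% of the EB libraries of L cells.

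The other 4 members did not separate the groups of EC cells. Sgk1 had 1101, 1445, 562 and 419 normalised counts with EB, against 998 and 565 with vehicle, a log2 fold change of 0.060 ± 0.58 (SE; limma adjusted p = 0.993) that was -0.63 without EB libraries 1 and 2. Nedd4l was the most even, with 722, 824, 643 and 751 normalised counts with EB, against 571 and 767 with vehicle (log2 fold change 0.14 ± 0.46, SE; limma adjusted p = 0.969), and 0.070 as its log2 fold change without EB libraries 1 and 2. Prss8 had 98.3, 13.03, 295.5 and 149 normalised counts with EB, against 108 and 451 with vehicle (log2 fold change -1.32 ± 1.19, SE; limma adjusted p = 0.905). Its lowest value was in EB library 2, where Hsd11b2 was highest. Its log2 fold change was -0.074 without EB libraries 1 and 2, -0.44 without EB library 2 alone, -0.30 without vehicle library 2 and -2.35 without vehicle library 1. Atp1b1 had 2333, 2114, 599 and 559.9 normalised counts with EB, against 719 and 1324 with vehicle (log2 fold change 0.22 ± 0.66, SE; limma adjusted p = 0.966). As for Nr3c2, EB libraries 1 and 2 were its highest, and without them the log2 fold change was -0.75.

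Per length, the order of neighbouring members in EC cells was largely undetermined, while members further apart could be ranked. In reads per kilobase of exon per 1000000 reads, Atp1b1 averaged 64.2 ± 28.9, Nr3c2 28.9 ± 31.0, Sgk1 28.0 ± 10.7, Prss8 18.0 ± 16.1 and Hsd11b2 11.4 ± 13.5 (SD, n = 6 EB and vehicle libraries together). Nedd4l averaged 6.76 ± 1.014, Scnn1a 3.41 ± 2.7, Scnn1b 0.686 ± 1.32 and Scnn1g 0.393 ± 0.887 on that scale. The range of each member overlapped that of the next, though Atp1b1 exceeded Nr3c2 in 6 of 6 libraries. Further apart, Atp1b1 (33.4 to 96.5) and Sgk1 (15.7 to 41.3) lay wholly above Nedd4l (5.21 to 7.95). Nedd4l in turn lay wholly above Scnn1b (0 to 3.32) and Scnn1g (0 to 2.20).

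The tables were normalised separately, so levels in the cell types are set side by side without a test. Hsd11b2 had 81.2 to 310 reads per 1000000 reads on genes in the L-cell libraries and 0.605 to 66.1 in the EC-cell libraries. Atp1b1 had 522 to 623 in L cells and 103 to 297 in EC cells, and Sgk1 had 241 to 598 in L cells and 77.0 to 203 in EC cells. In these 3 members the ranges did not meet. The ranges of the channel subunits overlapped, with Scnn1a at 15.2 to 47.0 in L cells and 0 to 32.7 in EC cells, Scnn1b at 7.91 to 23.8 in L cells and 0 to 8.74 in EC cells, and Scnn1g at 0.856 to 16.1 in L cells and 0 to 6.58 in EC cells. Those of Nr3c2 (136 to 199.97 in L cells and 25.0 to 480 in EC cells), Nedd4l (109 to 131 in L cells and 92.0 to 140 in EC cells) and Prss8 (20.9 to 37.7 in L cells and 1.78 to 82.5 in EC cells) did.

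The EB effect in L cells minus that in EC cells was taken within tables, where the separate scaling cancels. For the 7 members in both tables, limma called 0 differences, against 0 of 13802 genes (0%), and 1 member, Nr3c2, had an unadjusted p under 0.05, as did 630 genes (4.56%). As the L-cell values were used to choose the members, these differences are a description. They were -2.81 ± 1.16 (SE) on the log2 scale for Nr3c2, -2.95 ± 1.49 for Hsd11b2 and -2.75 ± 1.97 for Scnn1a, all 3 with the larger EB effect in EC cells. For Scnn1a the difference was 0.34 without EC vehicle library 2, and without EC EB libraries 1 and 2 it was -1.38 for Nr3c2, -1.59 for Hsd11b2 and -2.07 for Scnn1a. For Prss8 it was 1.35 ± 1.49, for Sgk1 0.078 ± 0.80, for Nedd4l -0.34 ± 0.40 and for Atp1b1 -0.17 ± 0.84, each smaller than its standard error. These SEs come from a common estimate of each gene's spread over both cell types, whose scatter differed. For Nedd4l the SE of the difference was thus below the 0.46 of the EC-cell effect alone. No difference could be fitted for Scnn1b and Scnn1g, which failed the filter in EC cells.

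**Figure D5:**
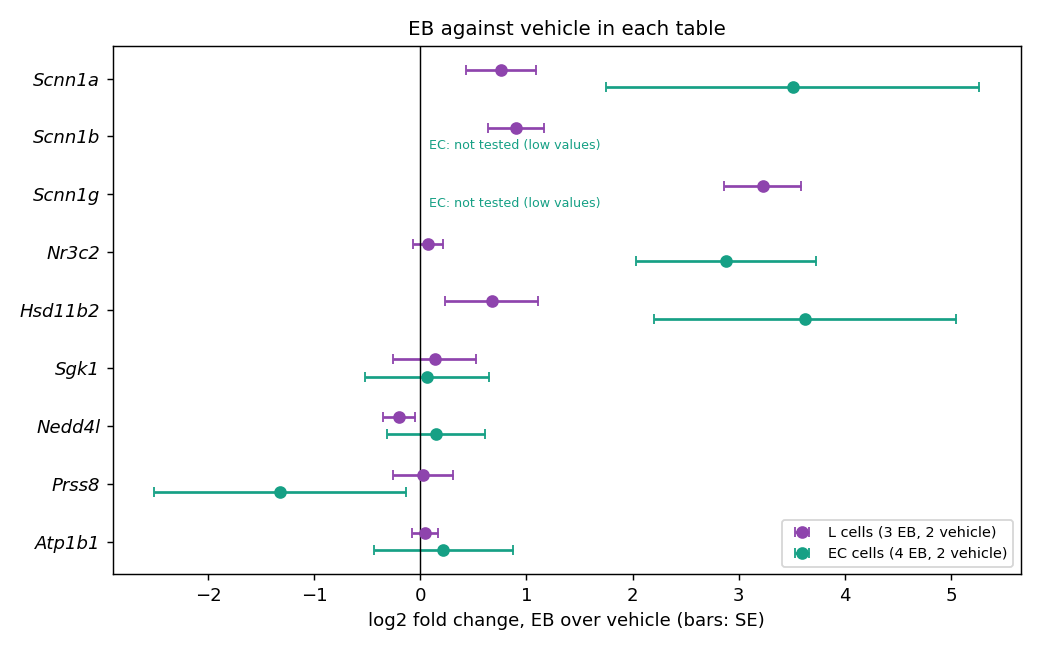
Log2 fold change of EB over vehicle (horizontal axis; points are estimates and bars SE) for each member in L cells (3 EB and 2 vehicle libraries) and EC cells (4 EB and 2 vehicle libraries). Scnn1g stands at 3.22 in L cells; the largest EC-cell values, 3.63 for Hsd11b2, 3.51 for Scnn1a and 2.88 for Nr3c2, carry SEs of 0.85 to 1.76, and Scnn1b and Scnn1g were not tested there.

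A further 61 genes of sodium transport and corticosteroid action were set beside the members. In L cells 58 were tested: 28 had higher and 30 lower values with EB, limma called 0, and 11 had an unadjusted p under 0.05 (11.6% of all genes did). On recovered reads edgeR called 0 of the 58 and DESeq2 called 6, against 3.22% of all genes for DESeq2. Their median log2 fold change was -0.039. Every EB library lay above every vehicle library for 10 of the 58 (14.3% of all genes) and below for 6 (14% of all genes), shares near the background.

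Among the other subunits and regulators of the sodium pump, 3 of the 5 tested were higher and 2 lower with EB in L cells. Atp1b3, the beta-3 subunit, had a log2 fold change of -0.14 ± 0.14 (SE; limma adjusted p = 0.764) and Fxyd3 one of 0.36 ± 0.45 (SE; limma adjusted p = 0.814). Fxyd4, a pump regulator known from rat colon and kidney as a corticosteroid-induced factor, had 3066, 572 and 622 normalised counts with EB, against 241 and 29.1 with vehicle. Its groups did not overlap, but EB library 1 was far above the other EB libraries. Its log2 fold change of 3.59 ± 0.95 (SE) did not pass the test (limma adjusted p = 0.239). It was 2.09 without vehicle library 2 and 5.10 without vehicle library 1. Fxyd4 was called with no filter, and not with edgeR or DESeq2. In EC cells Fxyd4 had at most 3 reads in any library.

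Of the 6 channel-activating proteases and their inhibitors, 1 was higher and 5 lower with EB in L cells. The higher one, the serine protease Tmprss2, had 21222, 15819 and 13309 normalised counts with EB, against 7811 and 10384 with vehicle. The groups did not overlap, and the log2 fold change was 0.87 ± 0.22 (SE; limma adjusted p = 0.231). Spint2 and Spint1, inhibitors of prostasin and matriptase, had log2 fold changes of -0.22 ± 0.23 (SE; limma adjusted p = 0.764) and -0.095 ± 0.14 (SE; limma adjusted p = 0.850). St14, which encodes matriptase, had one of -0.19 ± 0.17 (SE; limma adjusted p = 0.722).

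The 15 ligases, kinases and binding partners had 9 higher and 6 lower members in L cells. The 14-3-3 proteins that bind phosphorylated Nedd4l were even, with log2 fold changes of -0.17 ± 0.14 (SE) for Ywhaz, 0.058 ± 0.13 (SE) for Ywhab and -0.038 ± 0.13 (SE) for Ywhae. Sgk2, a paralogue of Sgk1, had 2738, 3723 and 3243 normalised counts with EB, against 4341 and 6780 with vehicle. Every EB library was below both vehicle libraries, with a log2 fold change of -0.76 ± 0.22 (SE; limma adjusted p = 0.259).

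Corticosteroid signalling and induced genes had 4 higher and 5 lower members of 9 in L cells. Of those with the highest levels, Dusp1, a phosphatase induced by glucocorticoids, had a log2 fold change of -0.21 ± 0.33 (SE; limma adjusted p = 0.857). The receptor chaperones Fkbp4 and Fkbp5 had log2 fold changes of -0.11 ± 0.12 (SE; limma adjusted p = 0.777) and -0.52 ± 0.38 (SE; limma adjusted p = 0.649). Ndrg2, which aldosterone induces in rat kidney, had 8477, 6829 and 6049 normalised counts with EB, against 4585 and 4824 with vehicle. Its groups did not overlap, and its log2 fold change was 0.58 ± 0.16 (SE; limma adjusted p = 0.255).

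Of 23 genes of colonic salt and water transport tested in L cells, 11 were higher and 12 lower with EB. The most abundant were all lower without passing the test. Guca2a, the peptide guanylin, averaged 157456 ± 22277 (SD, n = 3) normalised counts with EB and 215338 ± 37752 (SD, n = 2) with vehicle. Its receptor Gucy2c averaged 15555 ± 240.0 (SD, n = 3) with EB and 18822 ± 1278 (SD, n = 2) with vehicle. The sodium-hydrogen exchanger Slc9a2 and the chloride exchanger Slc26a3 had log2 fold changes of -0.16 ± 0.12 (SE; limma adjusted p = 0.678) and -0.47 ± 0.24 (SE; limma adjusted p = 0.498).

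In EC cells 56 of these 61 genes were tested. Of these, 27 were higher and 29 lower, their median log2 fold change was -0.16, and limma, edgeR and DESeq2 each called 0. At an unadjusted p under 0.05 there were 3 by limma: Dusp1, Sgk2 and Wnk4, against 3.55% of all genes. Without EB libraries 1 and 2, 27 were higher and 29 lower. Their median was then -0.052, and limma called 0 (5 at an unadjusted p under 0.05). Dusp1 had 227, 192, 188 and 862 normalised counts with EB, against 926 and 3073 with vehicle, a log2 fold change of -2.54 ± 0.72 (SE; limma adjusted p = 0.905), and of -2.07 without EB libraries 1 and 2. Every EB library was below both vehicle libraries. All 4 pump genes tested were lower with EB, such as Atp1b3 at -1.87 ± 0.99 (SE; limma adjusted p = 0.905) and Fxyd3 at -1.41 ± 0.74 (SE; limma adjusted p = 0.905). Without EB libraries 1 and 2 these were at -1.03 and -0.43.

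Salt and water transport genes had 15 higher and 8 lower members of 23 in EC cells. Their median log2 fold change was 1.46, and none separated the groups. Slc26a3 was at 3.40 ± 1.69 (SE; limma adjusted p = 0.905), Guca2a at 2.34 ± 1.25 (SE; limma adjusted p = 0.905) and the chloride channel Clcn2 at 1.65 ± 0.96 (SE; limma adjusted p = 0.905). The guanylin receptor Gucy2c, also among the most abundant of the group, was even, at -0.14 ± 0.43 (SE, limma adjusted p = 0.969). Without EB libraries 1 and 2 the group's median was 0.60, with Slc26a3 at 1.22, Guca2a at 0.68, Clcn2 at -0.0058 and Gucy2c at 0.0050. Slc26a3 and Guca2a are also on the colonocyte list, whose share was highest in EB libraries 1 and 2 of this table, and the part of colonocyte transcript in these values was not tested. Proteases and inhibitors had 3 higher and 3 lower, kinases and partners 5 higher and 10 lower, and corticosteroid genes 4 of each direction; without EB libraries 1 and 2 the counts were 2 higher and 4 lower, 8 higher and 7 lower, and 2 higher and 6 lower.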

How the data were processed

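PolyA RNA was reverse-transcribed into full-length cDNA with a SMART-Seq HT kit and tagmented into libraries, per the labels' protocols. The submitters' processing notes name STAR, featureCounts, DESeq2 and mm10, with no versions; the gene annotation is not given in the sources used here. Each cell type has a deposited table of signal, namely reads per gene divided by a DESeq2 size factor of the library. Each column's values were whole multiples of one step (100% of those above 0, tolerance 0.001 of a read), which gave back the reads. Size factors recomputed from these equalled the authors', 0.892 to 1.11 in L cells and 0.712 to 2.16 in EC cells.

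Tables were fitted one by one with limma 3.58.1 (R 4.3.3, trend option, log2(value + 1)), after keeping genes that reached 10 in at least 2 libraries. Calls needed a Benjamini-Hochberg adjusted p under 0.05 over all genes tested. One fit over all 11 libraries gave the contrast between cell types. As alternatives, the pseudocount was set to 0.5 or 4 and the filter to none or 50. Quantile normalisation, a replicate block, leaving out each library, leaving out EC-cell EB libraries 1 and 2, and edgeR 4.0.16 and DESeq2 1.42.0 on the recovered reads were also run. The fit was tested on simulated data. Limits from reads cover counting error only.

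The members and gene lists were chosen with earlier results of these data known. By rule, the text names all members. From each of the 5 pathway groups it names called genes and up to 4 genes with the highest mean. In EC cells only some of the genes with the highest means are given, so those shown are not the rule's full set. Other names were chosen after their values were seen. A gene that the rule named is not reported here. The genes most like Scnn1b and Scnn1g were to be named among genes kept in both tables, where neither of them is, so none is named. Exon lengths come from GENCODE vM21, and coordinates and windows from RefSeq.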

Additional observations from a re-analysis of the deposited data

Results flagged for a closer look

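Scnn1g in EC cells with EB had a library far from the others of its group. The normalised counts were 0, 0, 2.59 and 0 in EB libraries 1 to 4, so the gap between EB library 3 and the nearest other library, divided by the range of the group, was 1, above Dixon's critical value for 4 samples. The value rests on 3 reads. The vehicle libraries stood at 32.4 and 0. With the other 3 libraries at 0, any read in one library gives this ratio, so the rate at which chance marks groups in this way does not apply to it.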

How the results depend on the processing

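Calls depended strongly on the tool and on single libraries. In L cells limma called 4 genes; the count was 139 with no filter, 14 with quantile normalisation, 56 with the replicate block, 0 with edgeR (1849 at an unadjusted p under 0.05) and 522 with DESeq2. It ran from 0 to 174 when a library was left out: 174 without vehicle library 1, 62 without vehicle library 2 and 0 without any 1 EB library. In EC cells limma called 0 genes, against 24 with the replicate block, 15 with DESeq2 and 0 with edgeR, and 0 to 1 with a library left out, the 1 being without vehicle library 1. The difference between cell types gave 0 calls, and 0 to 257 with a library left out, 257 being without EC vehicle library 1; Scnn1a was then at -5.84.

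Of 432 fold changes and differences compared with their main value, 404 kept their direction or moved by less than the spread, 17 moved, 1 newly passed the threshold (Nr3c2 in EC cells with DESeq2, given above) and 10 of the tested EC-cell values reversed, all of Sgk1, Nedd4l and Atp1b1. Sgk1 was at 0.060 and became -0.056 with quantile normalisation and -0.63 without EB libraries 1 and 2; with a library left out it ran from -0.35 to 0.47. Atp1b1 was at 0.22 and became -0.75 without EB libraries 1 and 2, and ran from -0.22 to 0.66. Nedd4l was at 0.14 and ran from -0.068 to 0.36. The cause was not tested. Among the untested values, signs changed with a library left out for Sgk1 (-0.58 to 0.85), Prss8 (-0.46 to 0.51) and Nr3c2 (-0.018 to 0.16) in L cells, and for the differences between cell types of Scnn1a, Sgk1, Atp1b1 and Atp12a. Scnn1g in L cells ran from 2.93 to 3.40 over all alternatives and Scnn1b from 0.69 to 1.11. Some alternatives called Scnn1g and others, such as edgeR, did not. Since the members were chosen on this comparison, nothing is read from such calls.

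The labels do not say that equal replicate numbers pair samples. Deviations of same-numbered libraries correlated at 0.157 and 0.148 in L cells and at 0.0361 and 0.00685 in EC cells. With 2 vehicle libraries per table, their deviations mirror each other, so these values cannot decide whether samples were paired. The replicate block gives each EB library without a same-numbered vehicle library a term of its own. Its fold changes thus rest on libraries 1 and 2 of each group, and in EC cells EB libraries 1 and 2 are those that stood apart. With the replicate block, Fxyd4 and Atp12a in L cells were called (limma adjusted p = 0.00373 each). Without EB library 3 the limma adjusted p was 0.633 for Fxyd4 and 0.648 for Atp12a.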

Other observations

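Among the 61 genes of sodium transport and corticosteroid action, DESeq2 on recovered reads called 6 in L cells (3.22% of all genes). Both limma and edgeR called 0 of them. All 6 separated the groups, from which nothing is read, since they were picked by a call on the same libraries. Of these, 2 are described above, Tmprss2 and Sgk2, and 4 are salt transport genes chosen here after their values were seen. Kcnn4, a calcium-activated potassium channel, had 1241, 836 and 862 normalised counts with EB, against 417 and 509 with vehicle, a log2 fold change of 1.06 ± 0.22 (SE; limma adjusted p = 0.192). Ano1, a calcium-activated chloride channel, had 5827, 4818 and 4159 normalised counts with EB, against 1145 and 2669 with vehicle, a log2 fold change of 1.48 ± 0.33 (SE; limma adjusted p = 0.218). Slc12a2, the basolateral sodium-potassium-chloride cotransporter, had 1513, 3693 and 2026 normalised counts with EB, against 1029 and 800.2 with vehicle, a log2 fold change of 1.31 ± 0.34 (SE; limma adjusted p = 0.235). Clca4a, of the calcium-activated chloride channel regulator family, went the other way, with 447, 748 and 533 normalised counts with EB, against 1492 and 2963 with vehicle, a log2 fold change of -1.90 ± 0.32 (SE; limma adjusted p = 0.118).

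Atp12a, the colonic proton-potassium pump, was also chosen after its values were seen. It had 10422, 2380 and 2732 normalised counts in L cells with EB, against 1752 and 358 with vehicle, so that EB library 1 was the highest, as it was for Fxyd4 and for the share of distal Hox genes. Its log2 fold change was 2.36 ± 0.77 (SE; limma adjusted p = 0.312), 1.22 without vehicle library 2 and 3.51 without vehicle library 1. Reads of Gm10873, on the opposite strand, cannot be told apart from those of Atp12a.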
